A study of Saccharomyces cerevisiae BY4741 with 9 samples.

Results

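The H/ACA small nucleolar RNAs (snoRNAs) of budding yeast were measured by RNA sequencing in scc2-4 and in wild type (WT). The members are the 29 rows of the deposited expression table that carry the biotype snoRNA and a gene name from a list of H/ACA RNAs, of 7130 features in all and 77 rows of that biotype. All 29 listed names were found. The RefSeq annotation of the same genome build (sacCer3, R64) calls all 29 H/ACA RNAs in its notes and gives each the same start and end as the table. The other 48 snoRNA rows were used for comparison. The notes call 45 of these box C/D RNAs, and the 48 also include NME1, the RNA of RNase MRP.

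H/ACA RNAs fold into hairpins that carry an unpaired pocket, followed by a hinge (box H) and by the triplet ACA close to the 3′ end. The pocket pairs with the bases on either side of a uridine in ribosomal RNA (rRNA), and the bound enzyme Cbf5, with Nhp2, Nop10 and Gar1, turns that uridine into pseudouridine. Box C/D RNAs use another set of proteins and guide methylation of the ribose. Some snoRNAs instead act in the cleavage of the precursor of rRNA. Most yeast snoRNAs have their own RNA polymerase II promoter, and a few lie in the introns of protein genes.

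The scc2-4 strain carries a mutant SCC2 gene, whose product loads cohesin onto chromosomes together with Scc4. Both genotypes are of the BY4741 background and were grown in YPD+CSM medium to an optical density of 0.7. RNA was extracted with acidic phenol-chloroform and made into libraries with an Illumina TruSeq RNA kit. The labels list 9 samples: 3 of scc2-4, prepared after depletion of rRNA, and 6 of WT, since each of 3 WT RNAs was prepared both with and without that depletion. The table holds 6 columns, 3 for scc2-4 and 3 for WT. The WT columns are named by genotype and number only, so the preparation behind them is not given, and a difference of preparation cannot be told apart from genotype by name. The nuclear rRNA genes held 0.00388% to 0.00422% of reads in the scc2-4 libraries and 0.00547% to 0.00593% in the WT libraries. How reads that match several places were counted is not given, so these shares do not tell the preparation. The design text calls the scc2-4 samples biological replicates, but the labels do not say how many clones were grown, nor at what temperature.

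Values are RPKM: the reads of a feature divided by its length in kilobases, for every 1000000 reads that the table assigns to features. Assigned reads, recovered from the step between low values, numbered 14930000 to 21930000 in the scc2-4 libraries and 14730000 to 17670000 in the WT libraries. Read counts of replicates differed beyond sampling noise: chi-square divided by its degrees of freedom was 23.5 to 30.8 between scc2-4 libraries and 28.5 to 127 between WT libraries. On the log2 scale WT replicate 1 correlated with WT replicates 2 and 3 at 0.977 and 0.968, while WT replicates 2 and 3 correlated with each other at 0.993 and the scc2-4 libraries at 0.990 to 0.993 (Pearson, across features). Members other than SNR42 were counted from 594 to 268456 reads in each library, so sampling noise is small beside the spread between replicates. SNR42 had 87 to 132 reads.

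The letters of the genes carried the class feature unevenly. ACA was found within the last 12 bases of 18 of the 29 H/ACA genes (62.1%), against 8 of the 48 other snoRNA genes (16.7%) and 12.4% of protein-coding genes. With ATA also allowed, a variant of the box, the numbers were 25 of 29 (86.2%), 12 of 48 (25%) and 41.7%. In 14 of the 29 (48.3%) ACA stood exactly 3 bases before the annotated end, against 3 of the 48 other rows (6.25%) and 1.36% of protein-coding genes. SNR82, SNR86, SNR44 and SNR85 held neither triplet in that window, which says only that these letters do not stand near the annotated end.

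The 6 members that passed the test of genotype, all lower in scc2-4, are shown here with their sequences, since the results turn on them. The letters are those of the RNA strand in the reference genome, written as DNA from 5′ to 3′, and capitals mark ACA, or ATA where no ACA was found, within the last 12 bases.
SNR31: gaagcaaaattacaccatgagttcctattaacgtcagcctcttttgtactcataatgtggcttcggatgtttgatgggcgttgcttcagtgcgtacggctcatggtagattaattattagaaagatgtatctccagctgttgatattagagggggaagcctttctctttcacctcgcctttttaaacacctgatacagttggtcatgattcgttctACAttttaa
SNR36: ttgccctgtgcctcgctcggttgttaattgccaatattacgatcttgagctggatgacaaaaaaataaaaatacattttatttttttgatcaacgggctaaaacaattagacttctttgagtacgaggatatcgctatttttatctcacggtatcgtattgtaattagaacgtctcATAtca
SNR80: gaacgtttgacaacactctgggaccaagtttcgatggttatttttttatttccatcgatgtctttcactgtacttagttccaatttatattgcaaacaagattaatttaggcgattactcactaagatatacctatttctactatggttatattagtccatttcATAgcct
SNR191: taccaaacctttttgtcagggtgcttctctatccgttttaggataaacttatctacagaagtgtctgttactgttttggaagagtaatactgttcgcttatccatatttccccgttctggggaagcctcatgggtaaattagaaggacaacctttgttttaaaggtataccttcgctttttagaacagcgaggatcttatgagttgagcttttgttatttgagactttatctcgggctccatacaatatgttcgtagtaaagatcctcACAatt
SNR33: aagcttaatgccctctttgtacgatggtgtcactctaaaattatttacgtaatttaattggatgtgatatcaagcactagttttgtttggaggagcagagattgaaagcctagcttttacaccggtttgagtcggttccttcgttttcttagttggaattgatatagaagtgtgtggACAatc
SNR46: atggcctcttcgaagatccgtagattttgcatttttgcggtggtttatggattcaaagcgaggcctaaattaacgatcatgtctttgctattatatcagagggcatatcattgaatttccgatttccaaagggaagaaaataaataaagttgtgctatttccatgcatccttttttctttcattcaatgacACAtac
The positions of these genes are, in the order printed, chrXV:841958-842182 on the minus strand (225 bases), chrXV:680685-680866 on the minus strand (182 bases), chrV:52150-52320 on the minus strand (171 bases), chrXIV:721938-722211 on the minus strand (274 bases), chrIII:142364-142546 on the minus strand (183 bases) and chrVII:545370-545566 on the plus strand (197 bases).

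The annotation names 45 positions of the large rRNAs for 28 of the members, 31 in 25S rRNA and 14 in 18S rRNA, and no such position for SNR30. Of these members, 13 are named for at least 2 positions. In the reference sequence of the ribosomal DNA, 44 of the 45 positions read T, the DNA letter for the uridine that is modified. For the 6 members above, the 17 bases around each target on the rRNA strand (the minus strand of chromosome XII, sacCer3) are printed with the target in capitals.
SNR31, 18S position 999 (chrXII:456726-456742): gaagatgaTcagatacc
SNR36, 18S position 1187 (chrXII:456538-456554): gcttaattTgactcaac
SNR80, 25S position 776 (chrXII:454398-454414): cggatggaTttgagtaa
SNR80, 18S position 759 (chrXII:456966-456982): gaaaaaatTagagtgtt
SNR191, 25S position 2258 (chrXII:452916-452932): ggagtaacTatgactct
SNR191, 25S position 2260 (chrXII:452914-452930): agtaactaTgactctct
SNR33, 25S position 1042 (chrXII:454132-454148): tgacctatTctcaaact
SNR46, 25S position 2865 (chrXII:452309-452325): ctttttgaTtcttcgat
These targets are annotations of the reference, and pseudouridine was not measured.

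In scc2-4 the H/ACA RNAs tended to lower levels, and few passed the test. The median log2 change over the 29 members was -0.30, against 0.05 over all 6559 features tested. The change was negative in 26 of the 29 members (89.7%), while 45.8% of all features had a negative change. At an adjusted p under 0.05 in limma, which fits a linear model to all features on the log2(RPKM + 1) scale, 6 members were lower in scc2-4 and 0 were higher. The lower ones are 20.7% of the members. By the same rule 15% of all features were lower and 17.5% were higher. Without the adjustment, 12 members had p under 0.05 in limma in the lower direction (41.4%, against 21.3% of all features) and 0 in the higher direction. Every scc2-4 library was below every WT library in 13 members (44.8%), against 23.6% of all features. No member had every scc2-4 library above every WT library, against 30.9% of all features. Of all features, 32.5% passed in either direction, so a call is common in this comparison. All 29 members passed the minimum mean of 1 RPKM. RPKM is a share of the reads assigned to features, so a lower level of an RNA cannot be told apart from more of other RNAs, and in a culture fewer cells in a state and less RNA per cell cannot be told apart.

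**Figure D1:**
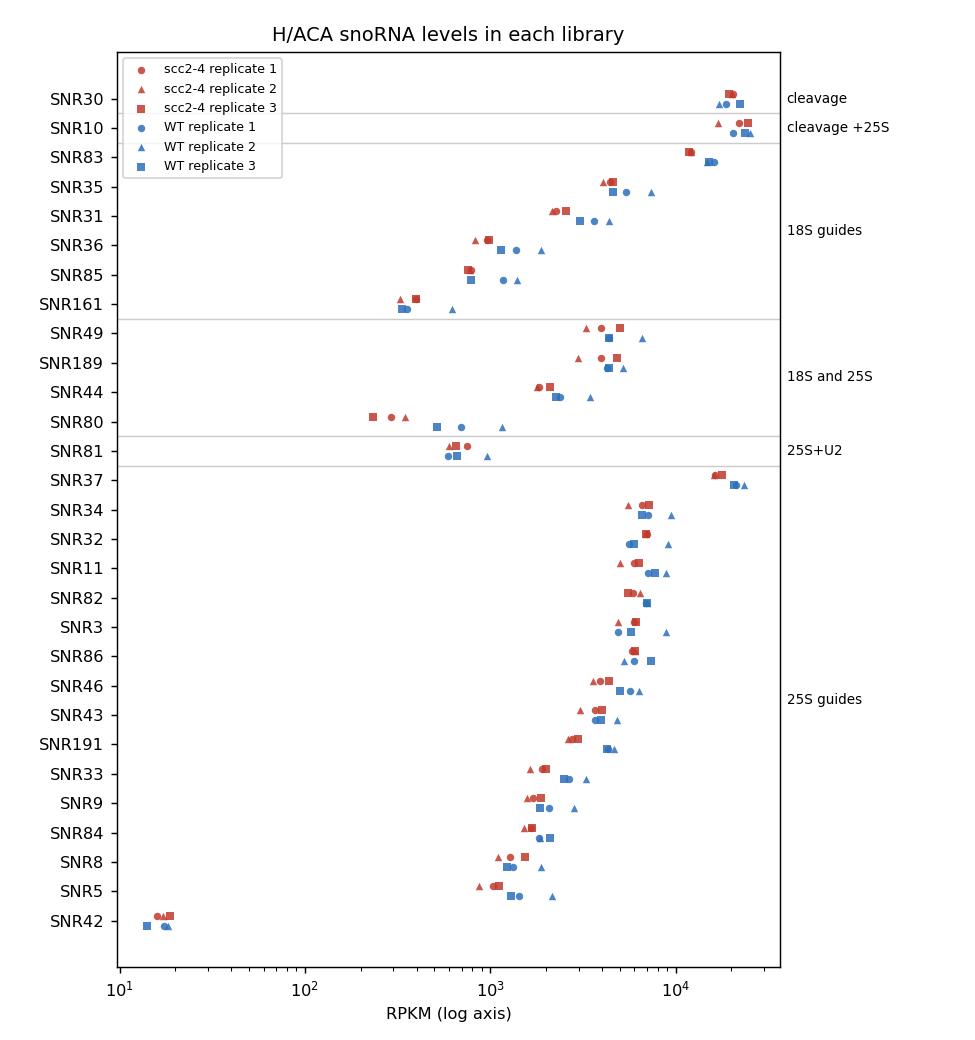
RPKM of each H/ACA snoRNA in each library, on a log axis, with members grouped by annotated target. Red symbols are the 3 scc2-4 libraries and blue symbols the 3 WT libraries, with 1 symbol shape per replicate number. Levels ran between 16.9 RPKM (SNR42) and 22123 RPKM (SNR10) as means over the 6 libraries, and WT replicate 2 (blue triangles) was the highest library in 23 of the 29 members.

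Levels differed widely among members. The mean over the 6 libraries was above 10000 RPKM in 4 members, 1000 to 10000 RPKM in 20 and under 1000 RPKM in 5. SNR10 was highest at 22123 RPKM and SNR42 lowest at 16.9 RPKM. Without SNR42, the highest mean was 54.5 times the lowest, that of SNR161.

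The members with the highest mean RPKM over the 6 libraries were the RNAs that act in cleavage of the rRNA precursor, and neither passed the test. In the WT libraries alone SNR37, a 25S guide, averaged more than SNR30. SNR30, which is needed for the cleavages that release the precursor of 18S rRNA, had 20529, 20236 and 19526 RPKM in scc2-4 replicates 1, 2 and 3, against 18692, 17088 and 22383 RPKM in the WT libraries. The groups overlapped, with the WT values spread on both sides of the scc2-4 values. The log2 change was 0.07, with a 95% interval of -0.28 to 0.42 (limma adjusted p = 0.724). SNR10, which acts in cleavage and also guides position 2923 of 25S rRNA, had 22046, 17027 and 24607 RPKM in the scc2-4 libraries, against 20295, 25180 and 23581 RPKM in the WT libraries. Its groups overlapped too, and scc2-4 replicate 2 was the lowest of the 6. The log2 change was -0.12, with a 95% interval of -0.57 to 0.34 (limma adjusted p = 0.645). Missing the threshold does not show that the levels were equal.

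Among the 6 RNAs that guide 18S rRNA alone, 2 fell and the rest did not pass the test, with a median log2 change of -0.42 over the 6 and negative changes in all 6. Of all features 15% were called lower, so 2 calls among 6 say little about this group. SNR31, the guide for position 999, had 2253, 2147 and 2561 RPKM in the scc2-4 libraries, against 3648, 4366 and 3036 RPKM in the WT libraries. The groups did not overlap, with all scc2-4 values below the lowest WT value. SNR31 averaged 2320 ± 215 RPKM in scc2-4 and 3683 ± 666 RPKM in WT (SD, n = 3 each), 1.56-fold lower (log2 change -0.64, SE 0.17, limma adjusted p = 0.0266).

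SNR36, the guide for position 1187, had 955, 829 and 986 RPKM in the scc2-4 libraries, against 1373, 1878 and 1138 RPKM in the WT libraries. Again no scc2-4 value reached the WT range. SNR36 averaged 924 ± 83.0 RPKM in scc2-4 and 1463 ± 378 RPKM in WT (SD, n = 3 each), 1.54-fold lower (log2 change -0.63, SE 0.20, limma adjusted p = 0.0489). SNR83, which guides positions 1290 and 1415, came next to the threshold: it averaged 12030 ± 156 RPKM in scc2-4 and 15341 ± 709 RPKM in WT without overlap (log2 change -0.34, limma adjusted p = 0.0515). The other 3 of this group, SNR35 and SNR85 (annotated as predicted guides for positions 1191 and 1181) and SNR161, had log2 changes between -0.48 and -0.16 and overlapping groups.

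Of the 4 RNAs that guide positions in both 18S and 25S rRNA, 1 fell, and it had the lowest log2 change of the 29 members. With 15% of all features called lower, 1 call among 4 says little about this group. SNR80, the guide for position 759 of 18S and 776 of 25S rRNA, had 290, 347 and 234 RPKM in the scc2-4 libraries, against 694, 1155 and 514 RPKM in the WT libraries. The highest scc2-4 value lay well under the lowest WT value, and the WT values were themselves far apart. SNR80 averaged 290 ± 56.4 RPKM in scc2-4 and 787 ± 331 RPKM in WT (SD, n = 3 each), 2.57-fold lower (log2 change -1.36, SE 0.30, limma adjusted p = 0.0167).

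SNR44, the intron-encoded guide for position 106 of 18S and 1056 of 25S rRNA, had 1822, 1786 and 2096 RPKM in the scc2-4 libraries, against 2365, 3458 and 2271 RPKM in the WT libraries. These groups did not overlap, but the change missed the threshold (log2 change -0.47, SE 0.20, limma adjusted p = 0.104). SNR49, which is named for 4 positions, and SNR189 had log2 changes of -0.30 and -0.24 with overlapping groups (limma adjusted p = 0.346 and 0.379).

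The largest group guides 25S rRNA alone: 3 of these 16 RNAs fell, a share near the 15% of all features called lower. Of the 16, 14 had a negative change, against 45.8% of all features, and their median log2 change was -0.25. SNR191, which lies in an intron of NOG2 and guides positions 2258 and 2260, had 2745, 2625 and 2966 RPKM in the scc2-4 libraries, against 4300, 4660 and 4274 RPKM in the WT libraries. Replicates lay close together in both genotypes, and the groups were well apart. SNR191 averaged 2779 ± 173 RPKM in scc2-4 and 4412 ± 216 RPKM in WT (SD, n = 3 each), 1.58-fold lower (log2 change -0.66, SE 0.12, limma adjusted p = 0.0108), the lowest adjusted p of the 29. The positions of SNR191 lie in a hairpin of the large subunit that touches the small subunit, where SNR3 guides position 2264 and SNR84 position 2266. For these neighbours the log2 changes were -0.15 (SNR3, limma adjusted p = 0.648, groups overlapping) and -0.25 (SNR84, limma adjusted p = 0.165, groups not overlapping), and the difference between them and SNR191 was not tested.

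SNR33, the guide for position 1042 of 25S rRNA, had 1891, 1636 and 2005 RPKM in the scc2-4 libraries, against 2663, 3303 and 2498 RPKM in the WT libraries, without overlap. It averaged 1844 ± 189 RPKM in scc2-4 and 2821 ± 425 RPKM in WT (SD, n = 3 each), 1.51-fold lower (log2 change -0.60, SE 0.16, limma adjusted p = 0.0288). SNR46, the guide for position 2865, had 3896, 3595 and 4393 RPKM in the scc2-4 libraries, against 5654, 6327 and 4996 RPKM in the WT libraries, also without overlap. It averaged 3961 ± 403 RPKM in scc2-4 and 5659 ± 666 RPKM in WT (SD, n = 3 each), 1.42-fold lower (log2 change -0.50, SE 0.15, limma adjusted p = 0.0376).

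Position 2865 belongs to the peptidyl transferase centre, where peptide bonds are formed, and SNR10, SNR34, SNR37 and SNR42 guide other positions there. Among these guides SNR46 passed the test, while SNR37 averaged 16819 ± 895 RPKM in scc2-4 and 21756 ± 1425 RPKM in WT without overlap (log2 change -0.36, limma adjusted p = 0.0702). The annotation also gives SNR37 a structural part in the early pathway of the large subunit. SNR34 changed by -0.24 (limma adjusted p = 0.334) and SNR42 by 0.07 (limma adjusted p = 0.646) on the log2 scale, with overlapping groups. SNR42 was the least abundant member, at 15.9, 17.2 and 18.8 RPKM in the scc2-4 libraries and 17.5, 18.2 and 14.1 RPKM in the WT libraries, so its value rests on the fewest reads.

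SNR5 and SNR11 stood below WT in every scc2-4 library but missed the threshold. SNR5, the guide for positions 1004 and 1124 of 25S rRNA, had 1032, 868 and 1120 RPKM in the scc2-4 libraries, against 1429, 2142 and 1291 RPKM in the WT libraries (log2 change -0.65, limma adjusted p = 0.0586). SNR11, the guide for position 2416, averaged 5753 ± 691 RPKM in scc2-4 and 7934 ± 911 RPKM in WT (log2 change -0.45, limma adjusted p = 0.0698). SNR82, named for 3 positions, averaged 5950 ± 433 RPKM in scc2-4 and 6953 ± 33.9 RPKM in WT, also without overlap (log2 change -0.22, limma adjusted p = 0.191). The groups of SNR32, SNR86, SNR8, SNR9 and SNR43 overlapped, with log2 changes between -0.36 and 0.06. SNR32, the guide for position 2191, was 1 of the 3 members with a positive change, beside SNR30 and SNR42.

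SNR81 guides position 1052 of 25S rRNA and position 42 of the spliceosomal U2 RNA, and its annotation adds position 93 of U2 under stress. It had 749, 600 and 655 RPKM in the scc2-4 libraries, against 591, 958 and 658 RPKM in the WT libraries. The scc2-4 values lay inside the WT range (log2 change -0.10, 95% interval -0.60 to 0.40, limma adjusted p = 0.720).

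**Figure D2:**
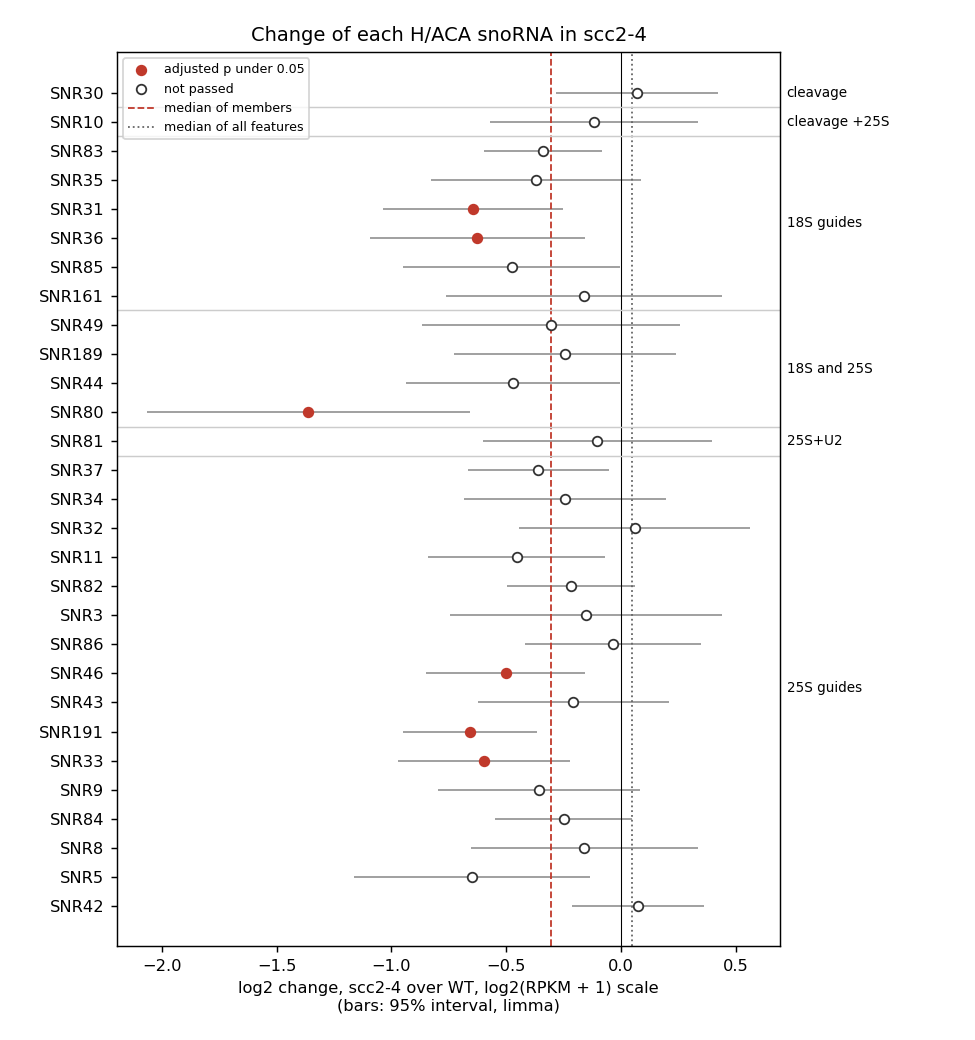
Log2 change of each H/ACA snoRNA in scc2-4 over WT on the log2(RPKM + 1) scale, with 95% intervals from limma and members grouped by annotated target. Filled red points are the 6 members with an adjusted p under 0.05, open points the other 23. The dashed line is the median of the 29 members (-0.30) and the dotted line that of all features (0.05).

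Summed over the 29 members, H/ACA RNAs took 4.86%, 4.59% and 5.03% of the assigned reads in the scc2-4 libraries, against 5.27%, 5.75% and 5.63% in the WT libraries. The mean share was 4.83% ± 0.218 in scc2-4 and 5.55% ± 0.254 in WT (SD, n = 3 each), and the groups did not overlap. The difference of -0.724 percentage points had p = 0.1 in a two-sided exact permutation test over libraries, the smallest p that 3 against 3 allows. Without SNR30, the member with the highest share, the means were 3.61% ± 0.237 in scc2-4 and 4.38% ± 0.305 in WT. Over the 26 members that overlap no other feature they were 4.19% ± 0.116 and 4.81% ± 0.182 in scc2-4 and WT, each with exact permutation p = 0.1. The 48 other snoRNA rows were lower in scc2-4 as well, at 2.46% ± 0.117 in scc2-4 and 3.07% ± 0.221 in WT (exact permutation p = 0.1).

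The change of the H/ACA RNAs was set beside that of the other snoRNA rows, and the size of the difference depended on which rows were counted. The median log2 change of the 47 other rows that passed the minimum was 0.07, against -0.30 in the members. In each library the median log2 level of the members was set against that of the other rows. The difference of medians was 5.13, 4.85 and 4.96 in the scc2-4 libraries, against 5.62, 5.36 and 5.53 in the WT libraries, so it was smaller in every scc2-4 library. The means were 4.98 ± 0.143 in scc2-4 and 5.50 ± 0.134 in WT, with a difference of -0.52 (two-sided exact permutation p = 0.1, the smallest possible). With features that overlap another left out, the difference was -0.17 and the groups overlapped (exact permutation p = 0.4).

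Of the other snoRNA rows, 38 of 48 had a mean under 1000 RPKM, against 5 of the 29 members. Among rows of at least 1000 RPKM, a limit chosen after seeing the data, the median log2 change was -0.32 in the 24 members and -0.31 in the 10 other rows, of which 9 had a negative change. The difference between the classes was then -0.11 with overlapping groups (exact permutation p = 0.3), and with 3 libraries per genotype no p under 0.1 was possible in any of these comparisons. Protein-coding features under 300 bases, used as a comparison by annotated length, had a median log2 change of -0.01 (387 features).

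One WT library moved with the result. WT replicate 2 was the highest of the 6 libraries in 23 of the 29 members, and this followed length: it was highest in all 21 members of up to 258 bases and in 2 of the 8 members of at least 268 bases. On the other side, scc2-4 replicate 2 was the lowest of the 6 libraries in 19 of the 29 members. These were 16 of the 21 members of up to 258 bases and 3 of the 8 members of at least 268 bases. The log2 ratio of WT replicate 2 to the mean of WT replicates 1 and 3 had a median of 0.54 in the 21 shorter members and of -0.04 in the 8 longer ones, a split chosen after seeing the values. Across the 29 members the Spearman correlation of this ratio with length was -0.80, a description of 1 library set against a pair that all members share. The same ratio had a median of -0.06 over all features and of 0.32 over 47 other snoRNA rows of any length. It was -0.10 over 206 protein-coding genes with an annotated length under 260 bases and no overlap. Over 12 features of at least 260 bases with the biotype snRNA or ncRNA it was -0.19. The annotated length of a coding gene is not that of its RNA, so these sets do not tell RNA length from RNA class.

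Without WT replicate 2 the median log2 change of the members was -0.17, and 2 members were called lower, SNR191 and SNR80. SNR31, SNR33, SNR46 and SNR36 then missed the threshold (limma adjusted p of 0.0604, 0.0689, 0.0969 and 0.0853), with log2 changes of -0.50, -0.46, -0.40 and -0.42. Those of SNR191 and SNR80 were -0.60 and -1.03. With all libraries kept, the median log2 change of the 8 longer members was -0.23, and that of the 21 shorter ones -0.36. These 2 medians were not computed without WT replicate 2, but the log2 change of each of the 21 shorter members then moved up. Of the 8 longer ones, 4 moved up: SNR191 to -0.60, SNR37 to -0.29, SNR82 to -0.20 and SNR42 to 0.16. The other 4 moved down: SNR83 to -0.35, SNR84 to -0.26, SNR86 to -0.13 and SNR30 to -0.0012. So the lower median of the shorter members holds only with WT replicate 2 kept in, as far as was computed. Of the 6 members called with all libraries, 5 are shorter than 260 bases. The part of this library in the result beyond these values was not tested.

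**Figure D3:**
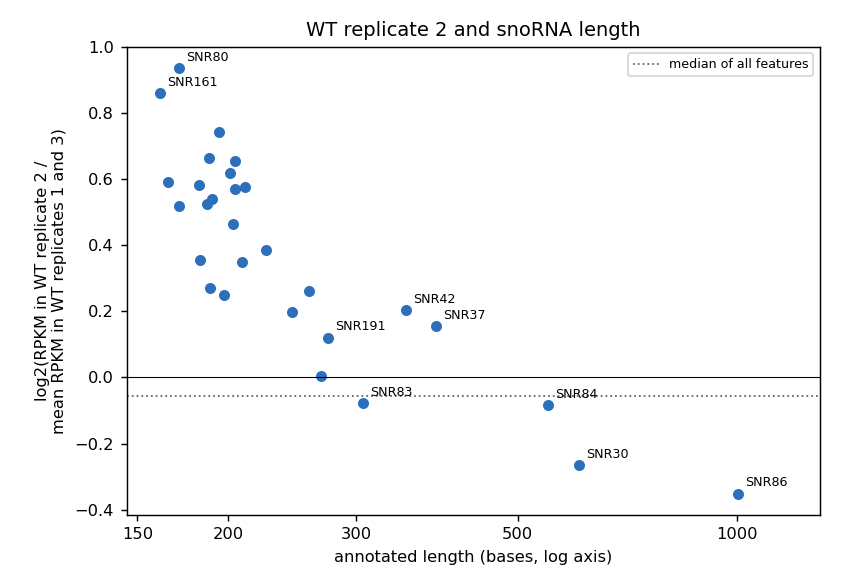
For each of the 29 H/ACA snoRNAs, the log2 ratio of its RPKM in WT replicate 2 to its mean RPKM in WT replicates 1 and 3 (vertical axis) against annotated length in bases (horizontal log axis). The dotted line is the median of all features (-0.06), and the shorter members lie highest, up to 0.94 for SNR80.

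Leaving out any 1 scc2-4 library also ended calls, while the changes stayed about as large. Without scc2-4 replicate 1, 2 or 3 in turn, 1 member was called lower each time, and the calls over all features also fell, to 1039, 781 and 766, against 2133 with all libraries. The call on SNR191 was lost without scc2-4 replicate 2 (limma adjusted p = 0.0549), and that on SNR80 without scc2-4 replicate 1 or 3 (limma adjusted p = 0.0554 and 0.0670). SNR31, SNR33, SNR46 and SNR36 lost their calls without any 1 of the 3 scc2-4 libraries. In these fits the log2 change lay between -0.72 and -0.62 for SNR191, -1.50 and -1.23 for SNR80, -0.73 and -0.59 for SNR31, -0.68 and -0.51 for SNR33, -0.60 and -0.43 for SNR46 and -0.69 and -0.55 for SNR36.

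The H/ACA genes lie on 12 chromosomes, with 7 on XV, 4 on XIII and none on IX. SNR31 and SNR5, which both stood below WT in every scc2-4 library, are neighbours on chromosome XV that are read away from each other. The 220 bases between their starts hold 1 match to AGCCCTAA, a core motif of the factor Tbf1, which is known to bind promoters of yeast snoRNA genes. The region is shown because both promoters must lie in or near it, with the match in capitals (sacCer3, chrXV:842183-842402, plus strand, SNR31 to the left and SNR5 to the right).
SNR31-SNR5: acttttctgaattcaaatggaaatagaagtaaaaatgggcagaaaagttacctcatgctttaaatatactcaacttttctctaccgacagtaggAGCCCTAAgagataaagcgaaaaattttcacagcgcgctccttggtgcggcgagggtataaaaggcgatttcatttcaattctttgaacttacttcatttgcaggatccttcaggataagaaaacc

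In the 300 bases before each gene, AGCCCTAA or AACCCTAA was found on either strand for 6 of the 27 members outside introns (22.2%): SNR30, SNR31, SNR43, SNR46, SNR49 and SNR5. The match between SNR31 and SNR5 lies in both windows and so counts for both genes. The share was 16.7% of other snoRNA rows, 1.19% of protein-coding genes and 1.40% of all 7071 features with such a window. All 48 other snoRNA rows were used here, without leaving out any in introns, so these shares are not from like sets. TTACCCG, the core motif of the factor Reb1, was found on either strand for 9 of the 27 (33.3%), against 2.08% of other snoRNA rows, 7.40% of protein-coding genes and 7.16% of all features. Those 9 genes were SNR10, SNR11, SNR34, SNR35, SNR42, SNR82, SNR83, SNR86 and SNR189. A match describes letters only, and binding was not measured.

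Overlapping genes shared reads with 3 members, and for SNR191 this bears on its host gene. SNR191 lies inside the intron of NOG2 (sacCer3 chrXIV:721771-722302), a gene for a GTPase of large-subunit assembly. The reads assigned to SNR191 were 81.6% to 82.1% as many as those assigned to NOG2 in the scc2-4 libraries, and 94.8% to 98.5% as many in the WT libraries. NOG2 itself was called lower (465 ± 27.8 RPKM in scc2-4 and 627 ± 34.0 RPKM in WT, log2 change -0.42, limma adjusted p = 0.0349). That call was lost without WT replicate 2 or 3 or any 1 scc2-4 library (limma adjusted p of 0.0711 to 0.127), with log2 changes of -0.48 to -0.36.

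If each read of SNR191 counts for both genes, the rest of NOG2 held 3002, 3535 and 2643 reads in the scc2-4 libraries, against 256, 889 and 1120 reads in the WT libraries. This rest includes the intron on either side of SNR191 as well as the exons, and the 2 were not told apart. Per 1000000 assigned reads this is 167 ± 8.45 in scc2-4 and 43.9 ± 23.8 in WT (SD, n = 3 each), 3.82-fold higher without overlap (exact permutation p = 0.1, the smallest possible). So the table's NOG2 value was lower in scc2-4 while the NOG2 reads outside SNR191 were higher. The subtraction depends on that assumption, since the sources used here give neither the counting rule nor any use of strand.

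**Figure D4:**
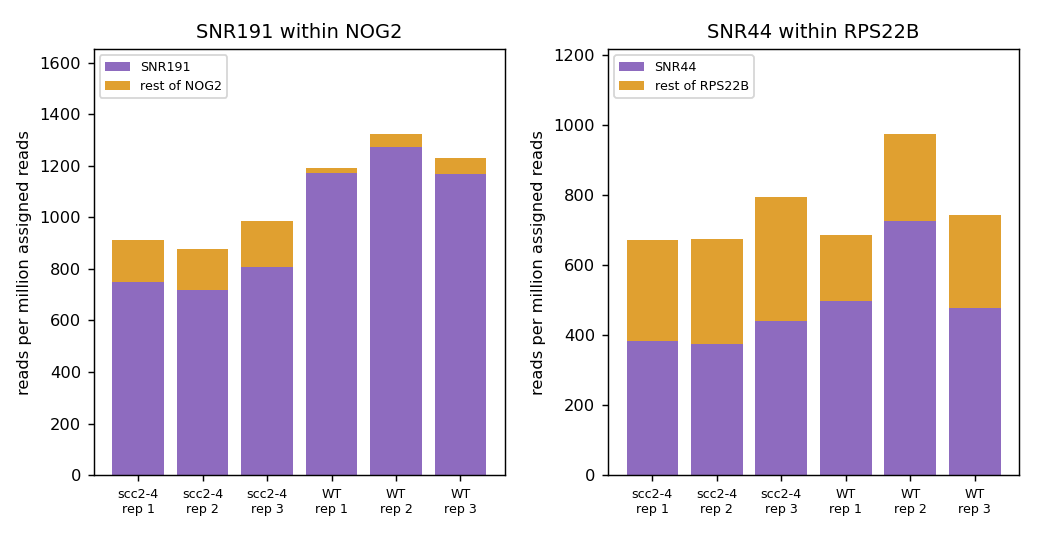
Reads per 1000000 assigned reads in each library for SNR191 within NOG2 (left) and SNR44 within RPS22B (right). Purple is the snoRNA and orange the rest of the host gene after subtraction, which for NOG2 was 161 to 177 in the scc2-4 libraries and 17.4 to 63.4 in the WT libraries.

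SNR44 lies in an intron of RPS22B (sacCer3 chrXII:856575-857057), which encodes a protein of the small ribosomal subunit. Its reads were 55.4% to 56.9% as many as those of RPS22B in scc2-4 and 64.2% to 74.6% as many in WT. The rest of RPS22B, which includes intron outside SNR44, was 315 ± 35.1 reads per 1000000 in scc2-4 and 234 ± 39.8 in WT. This was 1.35-fold higher (exact permutation p = 0.1), while the RPS22B value as deposited did not pass the test (log2 change -0.14, limma adjusted p = 0.553). SNR10 overlaps YGL088W, and the reads of the pair differed by 6 to 24 in each library, so nearly all reads assigned to YGL088W were also assigned to SNR10.

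Among genes for the proteins of the H/ACA particle and of its maturation, some were called higher in scc2-4 and 0 lower. Of the 4 core proteins, 2 were called higher, against 17.5% of all features. CBF5, which encodes the pseudouridine synthase, had 297, 303 and 301 RPKM in the scc2-4 libraries, against 166, 224 and 230 RPKM in the WT libraries (1.48-fold higher, limma adjusted p = 0.0423). NHP2, for a core protein that binds the RNA, had 260, 252 and 304 RPKM in the scc2-4 libraries, against 98.9, 139 and 181 RPKM in the WT libraries (2.01-fold higher, limma adjusted p = 0.0223). In both genes no WT value reached the scc2-4 range, which held for 30.9% of all features. NOP10 and GAR1 had log2 changes of 0.43 and 0.14 with overlapping groups (limma adjusted p = 0.146 and 0.489).

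Both assembly factors were called higher, against 17.5% of all features. SHQ1, whose protein binds Cbf5 before it joins the RNA, had 46.8, 50.5 and 54.4 RPKM in the scc2-4 libraries, against 5.79, 12.9 and 15.3 RPKM in the WT libraries (4.49-fold higher, limma adjusted p = 0.00643). SHQ1 lies on chromosome IX, whose 244 tested features had a median log2 change of 0.81, while the next highest nuclear chromosome, I, had a median of 0.27. The median centred log2 level of chromosome IX was 0.48 to 0.56 in the scc2-4 libraries and -0.20 to -0.12 in WT. For chromosome I it was 0.22 in scc2-4 replicate 1 but -0.43 and -0.46 in replicates 2 and 3, against -0.55 to -0.40 in WT. NAF1, whose protein accompanies the particle until Gar1 takes its place, had 6.36, 9.16 and 10.2 RPKM in the scc2-4 libraries, against 2.16, 2.83 and 3.18 RPKM in the WT libraries (2.56-fold higher, limma adjusted p = 0.00697).

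Of 8 genes for processing and capping factors, 4 were called higher and 0 lower, against 17.5% and 15% of all features. RNT1, for the RNase III that cuts snoRNA precursors, averaged 31.3 ± 0.581 RPKM in scc2-4 and 13.3 ± 4.86 RPKM in WT (2.37-fold higher, limma adjusted p = 0.0162). TGS1, for the enzyme that adds methyl groups to the snoRNA cap, averaged 21.9 ± 1.70 RPKM in scc2-4 and 12.1 ± 2.82 RPKM in WT (1.78-fold higher, limma adjusted p = 0.0194). NRD1, for a factor that ends snoRNA transcription, was 1.32-fold higher (limma adjusted p = 0.0353). LHP1, for the yeast La protein, was 1.54-fold higher (limma adjusted p = 0.0242) and overlaps another feature. NAB3, SEN1, RRP6 and PAP2 did not pass, with log2 changes of 0.02, 0.47, 0.54 and 0.04. For SEN1 and RRP6 every scc2-4 library was above every WT library, while the groups of NAB3 and PAP2 overlapped. The lowest library was WT replicate 1 in each of the 8 genes called higher, and each was still called without it, with smaller changes. The log2 change of CBF5 was 0.37 without that library, against 0.56 with it, and that of SHQ1 was 1.74, against 2.17 with it. The call on CBF5 was also lost with no minimum on low values (limma adjusted p = 0.0537). Without WT replicate 2, SHQ1, NAF1, RNT1 and TGS1 passed. Without any 1 of the scc2-4 libraries, SHQ1 and NAF1 passed (limma adjusted p of 0.0122 to 0.0380) and the other 6 did not.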

How the data were processed

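RNA sequencing libraries of scc2-4 and WT yeast were compared, 3 table columns per genotype. The authors deposited RPKM values for 7130 features. The aligner was Bowtie and the genome sacCer3, per the submitters' processing notes; its version, the counting tool and any use of strand are not given in the sources used. RPKM times span summed to 1000000 in each column, so values are relative to reads assigned to features, and 100% of low values in features under 600 bases lay within 0.1 of a whole read, which gave the depth. Reads thus recovered were used for description; the tests used RPKM.

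From the table, log2(RPKM + 1) was computed for features with a mean of at least 1 RPKM (6559), and the median over features was subtracted in each library. A fold change on this scale understates that of low features. The test of genotype was that of limma 3.58.1 under R 4.3.3 (empirical Bayes with trend, Benjamini-Hochberg adjustment over all features, threshold 0.05). It was also run on values simulated from the fit to these data, with equal noise in all features and libraries. There 89.6% of 1.5-fold changes were recovered and 6.31% of calls were false. The uneven spread of the WT libraries was not simulated. Single values were compared with two-sided exact permutation tests over libraries (scipy 1.17.1, Python 3.11.15, numpy 2.4.6, pandas 2.3.3, matplotlib 3.10.9 for figures). Box, target and motif letters were read from the RefSeq genome of the same build. Alternatives were another pseudocount, other centring, no minimum, no trend, a replicate block, features without overlap and leaving out each library.

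The members, the lists of pathway genes and the alternatives were chosen with earlier results of these data known. Members with an adjusted p under 0.05, SNR30, SNR10, SNR81 and both intron-encoded members are given per library, others by mean or range; SNR5, SNR42 and the protein genes with values per library were added after their values were seen.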

Additional observations from a re-analysis of the deposited data

How the results depend on the processing

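The median log2 change of the members (-0.30) stayed negative in every alternative run, between -0.42 (without scc2-4 replicate 3) and -0.17 (without WT replicate 2). The number of members called lower, 6, was 10 without centring, 4 with no minimum on low values, 4 with the replicate block and 8 without the trend, and 1 to 9 when 1 library was left out. Calls over all features, 2133, ranged between 766 and 2442 when 1 library was left out. No member was called higher in limma under any of these settings. At an unadjusted p under 0.05 in limma, 0 members were higher in any of them. A fit with 1 library left out also has fewer libraries, and the cause of these shifts was not tested.

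Changes of sign were limited to members that had not passed, each when 1 library was left out. Without WT replicate 2 the log2 change turned positive for SNR161, SNR3, SNR8 and SNR81 and negative for SNR30. Without scc2-4 replicate 2 it turned positive for SNR10, without WT replicate 1 negative for SNR32, and without WT replicate 3 negative for SNR32 and SNR42 and positive for SNR86. With 1 library left out, the log2 changes ranged between -0.32 and 0.14 for SNR161, -0.38 and 0.11 for SNR3, -0.30 and 0.036 for SNR8, -0.28 and 0.12 for SNR81, -0.0012 and 0.20 for SNR30, -0.25 and 0.033 for SNR10, -0.12 and 0.30 for SNR32, -0.0085 and 0.16 for SNR42, and -0.13 and 0.12 for SNR86. Over all members and alternatives, 327 values kept direction and side of the threshold, 25 lost a call, 12 gained one and 10 changed sign. The calls on SNR36 and SNR46 were the least stable, passing in 5 and 7 of 13 alternatives.

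The replicate numbers are not known to pair samples across genotypes: deviations of same-numbered libraries correlated at 0.31, -0.06 and 0.35, and scc2-4 replicate 2 correlated best with WT replicate 1. With the replicate number as a block, 2341 features were called, 4 members were lower, and NRD1 among the protein genes lost its call (limma adjusted p = 0.0601).

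The share of reads kept its direction in every alternative, between -0.608 and -0.867 percentage points with 1 library left out (exact permutation p = 0.2, the smallest possible there). The class difference against other snoRNA rows lay between -0.46 and -0.60 with 1 library left out, and was -0.47 against the 44 rows noted as C/D, an alternative added after seeing the data. With 3 libraries per genotype, the depth is not the limit for members other than SNR42; the spread between libraries is.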

Other observations

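The annotation of SNR9 names positions 2340 and 2345 of 25S rRNA. The reference base at 2340 is T and that at 2345 is A, the only 1 of the 45 annotated positions that does not read T. SNR9 averaged 1721 ± 159 RPKM in scc2-4 and 2249 ± 509 RPKM in WT (SD, n = 3 each), with overlapping groups (log2 change -0.36, limma adjusted p = 0.175).

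SNR161 lies 241 bases from TLC1, the telomerase RNA gene, and is read away from it. It was the shortest member at 161 bases, and it had 398, 327 and 398 RPKM in the scc2-4 libraries, against 356, 624 and 332 RPKM in the WT libraries, so WT replicate 2 stood alone.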
